A study of Mus musculus with 4 samples.

Results

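The data described here are the signals of 10 genes known to mark principal neuron fields of the mouse hippocampus: Bok, Spock1, Lct, Tdo2, Dsp, Wfs1, Crym, Man1a, Pcp4 and Nr3c2. They were taken from every probe set paired with 1 of these symbols alone, which gave 12 of 12422 probe sets and 9 of the 10 genes. On these arrays each transcript is read by a probe set, a group of short probes. Nr3c2, the mineralocorticoid receptor gene, had no such probe set and was not analysed here. The 4 arrays, 2 of APPSw mice and 2 of controls, measured left hippocampal RNA of males at 12 months of age. The APPSw mice are of the Tg2576 line, which overexpresses amyloid precursor protein with the Swedish mutation. The controls are nontransgenic, C57B6/SJL. Per the labels each array had its RNA from a mouse, but they do not say whether the arrays of a group came from separate animals, so the tests measure only the scatter among these samples, part of which may be technical.

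The hippocampus is built of fields whose principal neurons differ in their transcripts. Granule cells of the dentate gyrus send mossy fibres to the pyramidal cells of CA3, which project to CA1, with the small field CA2 between them. Genes expressed mainly in one field are used to draw field borders and to follow a field in a dissected tissue. Lct, Tdo2 and Dsp are known for the dentate gyrus, Bok for CA3, Wfs1, Crym and Man1a for CA1, and Pcp4 and Nr3c2 for CA2 among other places. Spock1 is known for pyramidal cells and is described apart from the single fields.

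Median signals were 1033 and 1013 on the APPSw arrays and 926 and 988 on the controls, in linear units scaled by the authors to a target of 2500. The median fold between replicate arrays was 1.18 for APPSw mice and 1.14 for controls, and 1.176 to 1.198 between arrays of different groups. Probe sets with a geometric mean signal under 565 were left out of the tests, which kept 7453 probe sets. With 2 arrays in each group, precision is limited throughout. Of the 12 probe sets of field markers, 8 were kept, 1 for each of Bok, Spock1, Lct, Tdo2, Dsp, Wfs1, Crym and Man1a. Under the filter lay the other probe sets of Tdo2, Dsp and Man1a, and the only one of Pcp4.

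Each field marker is summarized here by its kept probe set. Signals of Bok (CA3), Spock1 (pyramidal cells), Lct, Tdo2 and Dsp (dentate gyrus) were lower in APPSw mice by factors of 1.39 to 1.72. The groups overlapped for Dsp. The 3 CA1 markers differed by factors of 1.09 or less. Under the filter, the other probe set was 1.44-fold higher in APPSw mice for Tdo2, 1.21-fold higher for Man1a and 1.63-fold lower for Dsp. None of these markers passed the test. Further genes of the dentate gyrus, CA1, CA2 and CA3, described below, had overlapping groups by their brightest kept probe sets. The 3 kept CA3 genes among them had a median log2 difference of 0.25, which rested on APPSw 2. Another kept probe set of the CA3 gene Prkcd had both APPSw arrays below both controls. The 2 dentate genes lay at -0.16 and -0.17. Lists of the subiculum and of all principal neurons, also described below, held genes without overlap. Across the whole array limma called 0 of 7453 probe sets higher (0%) and 0 lower (0%) at an adjusted p of 0.05, with a lowest adjusted p of 0.599. Before adjustment 352 probe sets were higher in APPSw mice at p under 0.05 (4.72%) and 248 lower (3.33%). Among the 8 kept field markers, 0 were higher and 3 lower at that level. Both APPSw arrays lay below both controls for 19.0% of all kept probe sets, and for 4 of the 8 field markers. They lay above both controls for 22.2% of all kept probe sets and for 0 of the 8. The difference was below 0 for 47.3% of all kept probe sets and for 7 of the 8. Bok, Spock1, Lct and Tdo2 were singled out from a longer marker list in an earlier analysis of the same arrays, so these counts are a description and not independent evidence of a direction.

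**Figure D1:**
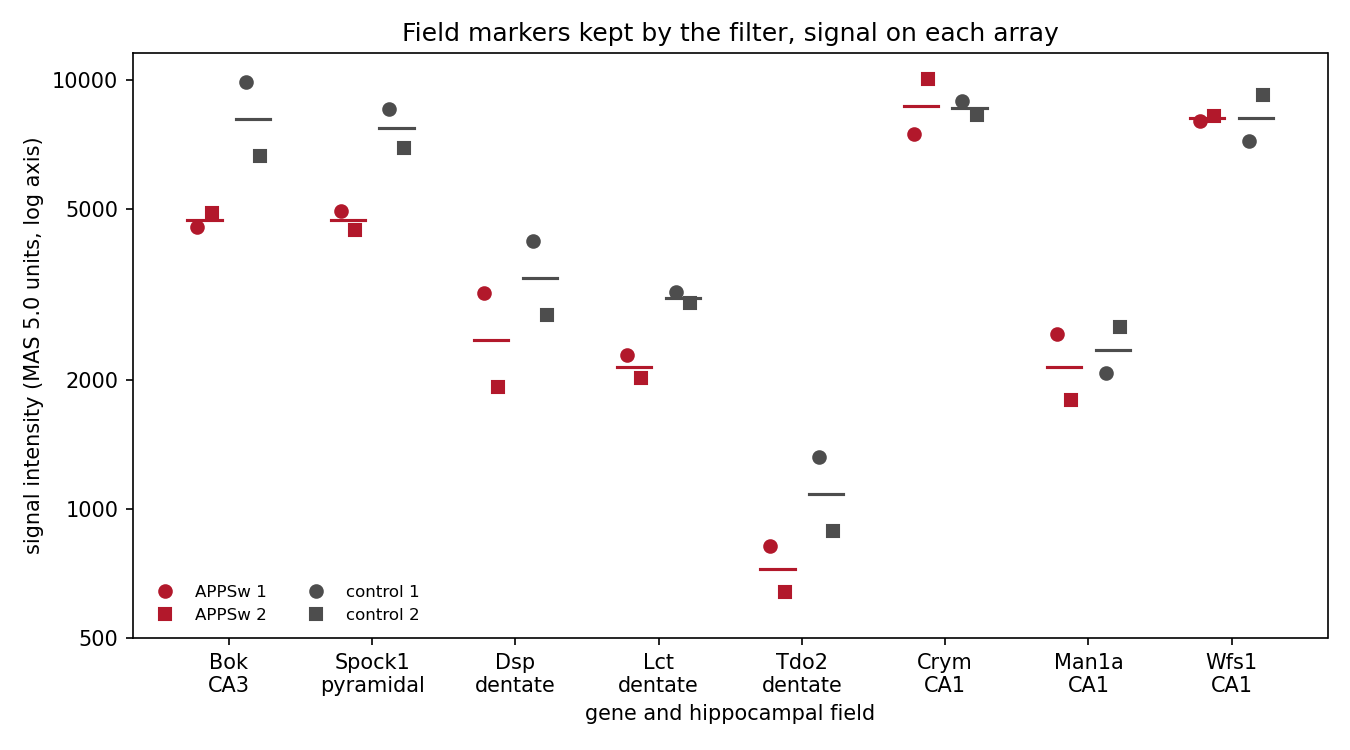
Signal intensity of the 8 kept field markers on a log axis, with APPSw arrays in red on the left of each gene and control arrays in grey on the right. Points are arrays (circles array 1, squares array 2) and bars are geometric means. For Bok, Spock1, Lct and Tdo2 both red points lie under both grey points, and for the other genes the groups overlap.

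Bok encodes a member of the BCL2 family, which regulates apoptosis. Its signal was 4542 and 4902 in APPSw mice, against 9912 and 6633 in controls. Both APPSw arrays were low and close to each other, both controls were higher, and the lower control exceeded the higher APPSw array by 1.35-fold. The mean signal was 4722 ± 255 in APPSw mice and 8272 ± 2318 in controls (SD, n = 2 each). The log2 difference, APPSw minus control, was -0.78 (SE 0.24, 95% interval -1.38 to -0.19, limma adjusted p = 0.599). The controls differed from each other by 1.49-fold, the APPSw arrays by 1.08-fold, and the groups by 1.72-fold. Without control 1 the difference was -0.49, and without control 2 it was -1.07.

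Spock1 encodes testican, a secreted proteoglycan of the extracellular matrix. Its signal was 4957 and 4481 in APPSw mice, against 8547 and 6952 in controls. The groups did not overlap, and the lower control was 1.40-fold above the higher APPSw array. The log2 difference was -0.71 (SE 0.19, 95% interval -1.19 to -0.23, limma adjusted p = 0.599), or 1.64-fold. This exceeded the spread of 1.11-fold between the APPSw arrays and of 1.23-fold between the controls. With an array left out it ranged from -0.86 to -0.56. By unadjusted p, Spock1 ranked 132 and Bok 230 among the 7453 probe sets. Both were singled out in an earlier analysis of the same arrays, so these ranks are a description and not independent evidence.

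Lct is the gene for lactase, the milk sugar enzyme of the small intestine, and is also transcribed in granule cells of the dentate gyrus. Its signal was 2284 and 2021 in APPSw mice, against 3213 and 3014 in controls. Replicates lay close together in both groups, 1.13-fold apart in APPSw mice and 1.07-fold apart in controls, and the groups did not overlap. APPSw minus control was -0.53 in log2 (SE 0.18, 95% interval -0.97 to -0.10, limma adjusted p = 0.599). Of the markers that lay lower in both APPSw arrays it depended least on any array, ranging from -0.62 to -0.45 with an array left out.

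Tdo2 encodes tryptophan 2,3-dioxygenase, which opens the kynurenine pathway of tryptophan breakdown. By its kept probe set its signal was 821 and 643 in APPSw mice, against 1321 and 888 in controls. The groups did not overlap, but the lower control was only 1.08-fold above the higher APPSw array. The log2 difference of -0.58 (SE 0.26, 95% interval -1.22 to 0.065, limma adjusted p = 0.612) was about as large as the 0.57 between the controls. With an array left out it ranged from -0.86 without control 2 to -0.29 without control 1. The other Tdo2 probe set, under the filter, gave 468 and 461 in APPSw mice and 226 and 462 in controls. The groups overlapped there, and the sign of its difference was opposite at 0.52 (95% interval -0.67 to 1.72), set by the low value of control 1. The 2 probe sets of Tdo2 therefore disagree in sign.

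Dsp encodes desmoplakin, which ties intermediate filaments to desmosomes in epithelia and heart. By its kept probe set its signal was 3191 and 1920 in APPSw mice, against 4219 and 2826 in controls. The groups overlapped, since APPSw 1 lay above control 2. In log2 the difference was -0.48 (SE 0.32, 95% interval -1.28 to 0.32, limma adjusted p = 0.680), and -0.11 without APPSw 2. Replicates differed by 1.66-fold in APPSw mice and by 1.49-fold in controls, more than the 1.39-fold between the groups. The other Dsp probe set was dim on every array, at 62.5 and 6.1 in APPSw mice and 14.3 and 70.9 in controls, and shows no order of the groups.

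The 3 dentate markers had a median log2 difference of -0.53, against 0.02 over all kept probe sets. Lct and Tdo2 had been singled out earlier on these same arrays, so this median is a description. By array, the median of the 3 lay below the mean of the controls by 0.40 in APPSw 1 and by 0.75 in APPSw 2, with control 1 at 0.29 and control 2 at -0.29. Control 1 was the brighter control for all 3 genes, as it was for Bok and Spock1. In bulk tissue, fewer cells of a field and less RNA per cell cannot be told apart.

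Bok, Spock1, Lct and Tdo2 had both APPSw arrays below both controls by their kept probe sets. They had been singled out in an earlier analysis of these arrays, and whether they share control was not tested. The sequences just upstream of these genes are shown as a description. Each is the 150 bases before the transcription start in RefSeq's GRCm38.p6 annotation, read 5′ to 3′ on the gene's strand. Capitals mark matches, on either strand, to the GC box GGGCGG, to the E-box form CAGNTG, which neuronal basic helix-loop-helix factors can bind, or to the TATA box motif TATAAA, and no matches overlapped.
Bok (chr1:93685425-93685574, plus strand): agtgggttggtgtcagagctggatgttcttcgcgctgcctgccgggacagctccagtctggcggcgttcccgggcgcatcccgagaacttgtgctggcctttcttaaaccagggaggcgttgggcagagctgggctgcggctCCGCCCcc
Spock1 (chr13:57908333-57908482, minus strand): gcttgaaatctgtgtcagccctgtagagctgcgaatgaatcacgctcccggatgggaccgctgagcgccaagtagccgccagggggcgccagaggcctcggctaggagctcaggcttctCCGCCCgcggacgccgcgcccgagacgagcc
Lct (chr1:128328319-128328468, minus strand): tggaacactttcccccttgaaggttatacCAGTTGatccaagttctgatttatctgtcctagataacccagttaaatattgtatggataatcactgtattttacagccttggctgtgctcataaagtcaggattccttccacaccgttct
Tdo2 (chr3:81975729-81975878, minus strand): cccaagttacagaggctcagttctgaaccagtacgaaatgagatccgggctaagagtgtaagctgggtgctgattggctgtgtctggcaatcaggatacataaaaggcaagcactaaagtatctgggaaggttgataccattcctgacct

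Bok and Spock1 each held 1 GC box, which 28.6% of 32841 promoter windows of this length hold, and Lct and Tdo2 held 0. Lct held 1 CAGNTG match, present in 30.1% of windows, and the other 3 held 0. None of the 4 held TATAAA, present in 7.57% of windows. The share of G and C was 66% for Bok and 68% for Spock1, above the median of 54% over all windows, and 40% for Lct and 47.3% for Tdo2, below it. None of these 3 motifs was therefore common to all 4 windows.

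**Figure D2:**
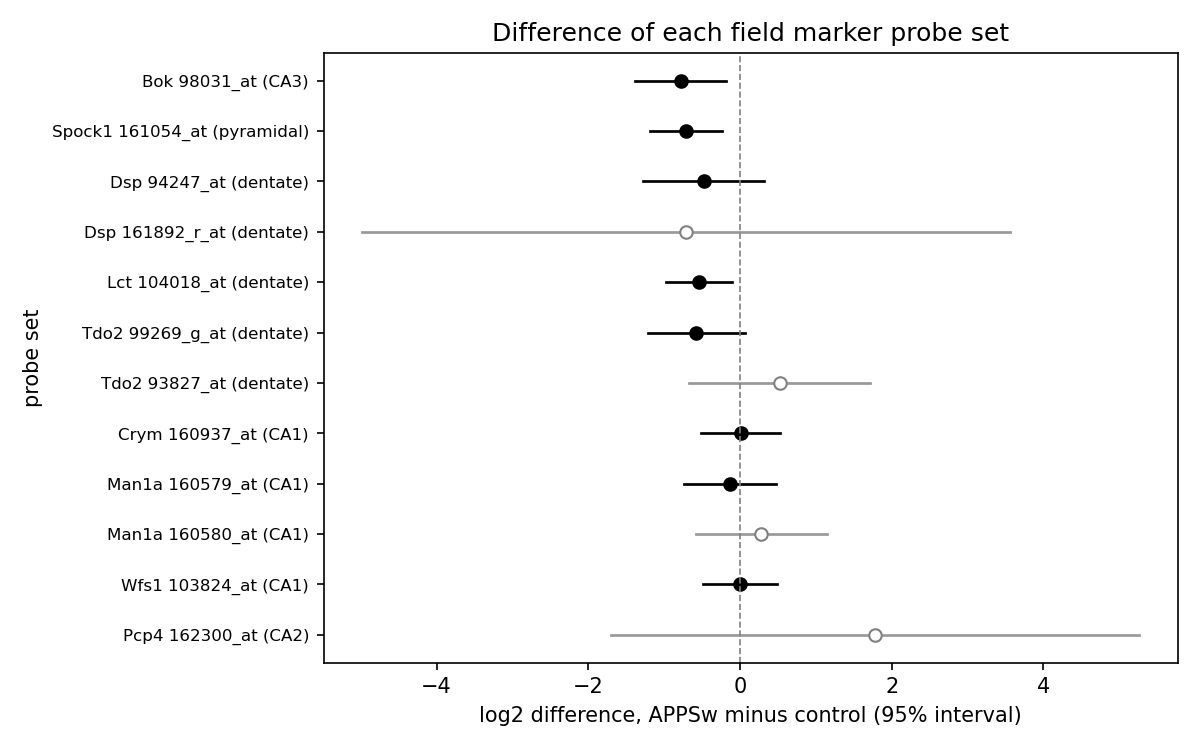
Log2 difference, APPSw minus control, of each of the 12 probe sets with its 95% interval from limma. Filled points passed the filter and open points did not (for those, limma was fitted without a filter). The intervals of Bok, Spock1 and Lct lie below 0 before adjustment, those of the 3 CA1 genes are centred near 0, and the dim probe sets have the widest intervals.

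The CA1 markers showed no common direction. Wfs1 encodes wolframin, a membrane protein of the endoplasmic reticulum, and is a standard CA1 marker. Its signal was 8016 and 8250 in APPSw mice, against 7201 and 9233 in controls. The APPSw values lay between those of the controls. The log2 difference was -0.0039 (SE 0.197, 95% interval -0.49 to 0.48, limma adjusted p = 0.997), and it had no stable sign, being 0.0085 after quantile normalization.

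Crym encodes mu-crystallin, a protein that binds thyroid hormone. Its signal was 7475 and 10069 in APPSw mice, against 8923 and 8306 in controls. The controls lay between the APPSw arrays, which differed from each other by 1.35-fold. In log2 the difference was 0.01 (SE 0.21, 95% interval -0.51 to 0.53, limma adjusted p = 0.996), and -0.20 without APPSw 2.

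Man1a encodes a Golgi mannosidase that trims N-linked glycans. By its kept probe set its signal was 2558 and 1799 in APPSw mice, against 2079 and 2651 in controls. The groups overlapped, with APPSw 2 lowest and control 2 highest. The log2 difference was -0.13 (SE 0.25, 95% interval -0.74 to 0.48, limma adjusted p = 0.895). By its dimmer probe set, under the filter, the signal was 682 and 475 in APPSw mice and 406 and 541 in controls, with a difference of 0.28 (95% interval -0.59 to 1.14). Both probe sets had APPSw 1 above APPSw 2 and control 2 above control 1.

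The intervals of the CA1 genes allow signals up to 1.41-fold lower in APPSw mice for Wfs1, 1.43-fold for Crym and 1.67-fold for Man1a. The 1.45-fold difference measured for Lct lies inside the interval of Man1a and just outside those of Wfs1 and Crym. In log2 the interval of Lct itself was -0.97 to -0.10, which overlaps those of all 3 CA1 genes. These intervals therefore do not set Lct apart from the CA1 genes. By array, the median of the 3 CA1 genes was -0.02 in APPSw 1, 0.02 in APPSw 2, -0.18 in control 1 and 0.18 in control 2, relative to the mean of the controls. The median difference was -0.0039 for the 3 CA1 markers and -0.53 for the 3 dentate markers. The gap between them was not tested, since genes of a field are not replicates of a condition. Lct and Tdo2 were also singled out in an earlier analysis of these arrays, so the dentate median is not independent of that choice.

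**Figure D3:**
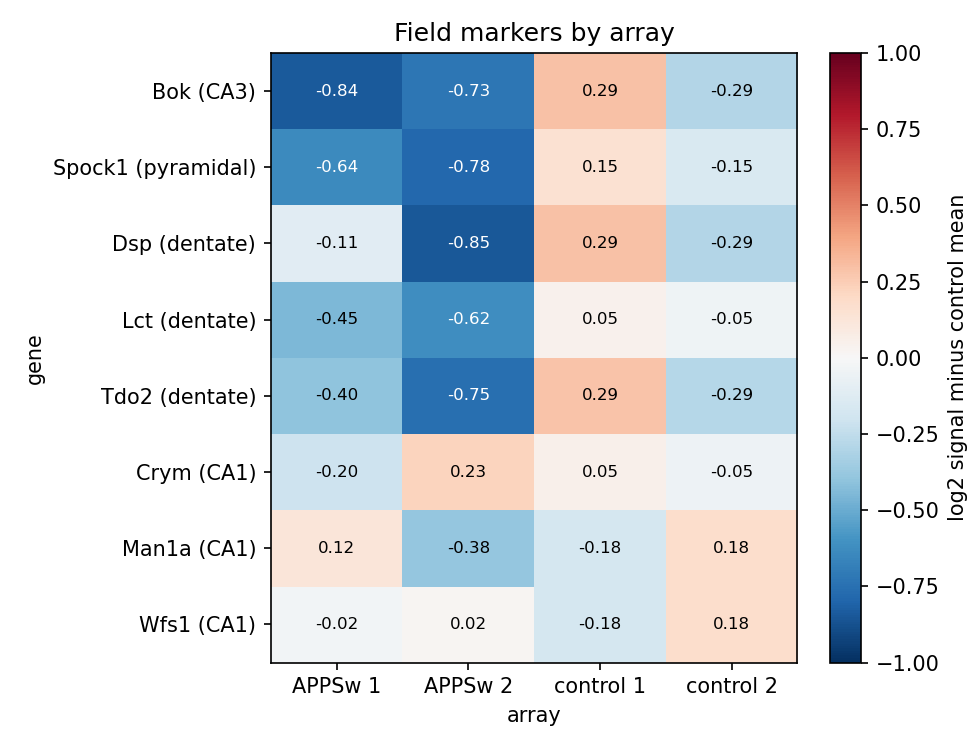
Log2 signal of the 8 kept field markers on each array, minus the mean of the 2 controls, with lower values in blue and higher in red. Bok, Spock1, Lct, Tdo2 and Dsp are below 0 on both APPSw arrays and higher in control 1 than in control 2, while Crym, Man1a and Wfs1 have values of both signs in APPSw mice or near 0.

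Pcp4, a small calmodulin-binding protein of Purkinje cells, CA2 and other neurons, was measured by a dim probe set under the filter. Its signal was 47.2 and 466 in APPSw mice, against 43.2 and 43.2 in controls. APPSw 2 alone stood apart, and APPSw 1 lay close to the controls. The log2 difference was 1.78 (SE 1.22, 95% interval -1.70 to 5.26), and 0.13 without APPSw 2. A second probe set on the array is paired with both Pcp4 and a neighbouring gene and was not used.

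Other genes of the same fields were described from lists, each gene by its kept probe set of highest mean signal. No gene of these lists passed limma's test in either direction. Of 10 further dentate markers, 4 were on the array and 2 were kept. Calb1, the calcium buffer calbindin, had signals of 4591 and 6413 in APPSw mice, against 6392 and 5757 in controls, a log2 difference of -0.16 (SE 0.22). Npnt, the matrix protein nephronectin, had 754 and 887 in APPSw mice, against 1327 and 635 in controls, a difference of -0.17 (SE 0.36). The groups overlapped for both, so these 2 dentate markers were not separated between APPSw mice and controls as Lct was.

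Of 11 further CA3 markers, 6 were on the array and 3 were kept, with a median difference of 0.25. That sign rested on APPSw 2, since the median was -0.046 without APPSw 2 and 0.66 without APPSw 1. Prkcd, protein kinase C delta, had signals of 5473 and 4379 in APPSw mice, against 5054 and 5191 in controls, a log2 difference of -0.07 (SE 0.19). Its other kept probe set gave -0.31 (SE 0.20), with both APPSw arrays below both controls. Socs2, an inhibitor of cytokine signalling, had 2626 and 4297 in APPSw mice, against 2851 and 2577 in controls, a difference of 0.31 (SE 0.27). Elavl2, a neuronal RNA-binding protein, had 2370 and 4608 in APPSw mice, against 2825 and 2723 in controls, a difference of 0.25 (SE 0.33). Socs2 and Elavl2 were bright in APPSw 2 alone.

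In CA2, 3 of 10 listed genes were kept, with a median difference of -0.09. Rgs14, a G protein regulator, had a log2 difference of 0.0076 (SE 0.21), the phosphatase gene Ptpn5 -0.09 (SE 0.22) and the proteoglycan gene Vcan -0.198 (SE 0.23), and the groups overlapped for all 3. In CA1, 2 of 8 were kept. The secreted protein gene Ccn3 differed by 0.11 (SE 0.21) and the transcription factor gene Pou3f1 by -0.14 (SE 0.26), again with overlapping groups. The added CA1 genes thus lay near 0, as Wfs1, Crym and Man1a did.

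In the subiculum, the output field beside CA1, 3 of 6 listed genes were kept. Fn1, fibronectin, had signals of 3711 and 3483 in APPSw mice, against 2643 and 2768 in controls, a log2 difference of 0.41 (SE 0.17). Dlk1, a membrane protein related to Notch ligands, had 2439 and 2277 in APPSw mice, against 1604 and 1935 in controls, a difference of 0.42 (SE 0.19). Both APPSw arrays lay above both controls for these 2 genes, as they did for 22.2% of all kept probe sets. Tle4, a transcriptional corepressor, overlapped at -0.46 (SE 0.38). The limma adjusted p was 0.612 for Fn1 and for Dlk1. Fibronectin is also made by cells of vessels and meninges.

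Genes shared by all principal neurons had a median log2 difference of -0.23 over 14 kept genes of 17 listed, with 4 above 0 and 10 below. By array the median was -0.12 in APPSw 1, -0.34 in APPSw 2, 0.03 in control 1 and -0.03 in control 2. Both APPSw arrays lay below both controls for 8 of the 14 (19.0% of all kept probe sets) and above them for 1 (22.2% of all kept probe sets). Snap25, a vesicle fusion protein, had a difference of -0.02 (SE 0.17), Ppp3r1, the calcineurin regulatory subunit, -0.23 (SE 0.18), and Gria2, an AMPA receptor subunit, -0.23 (SE 0.18). The list was chosen with earlier results of these arrays known.

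**Figure D4:**
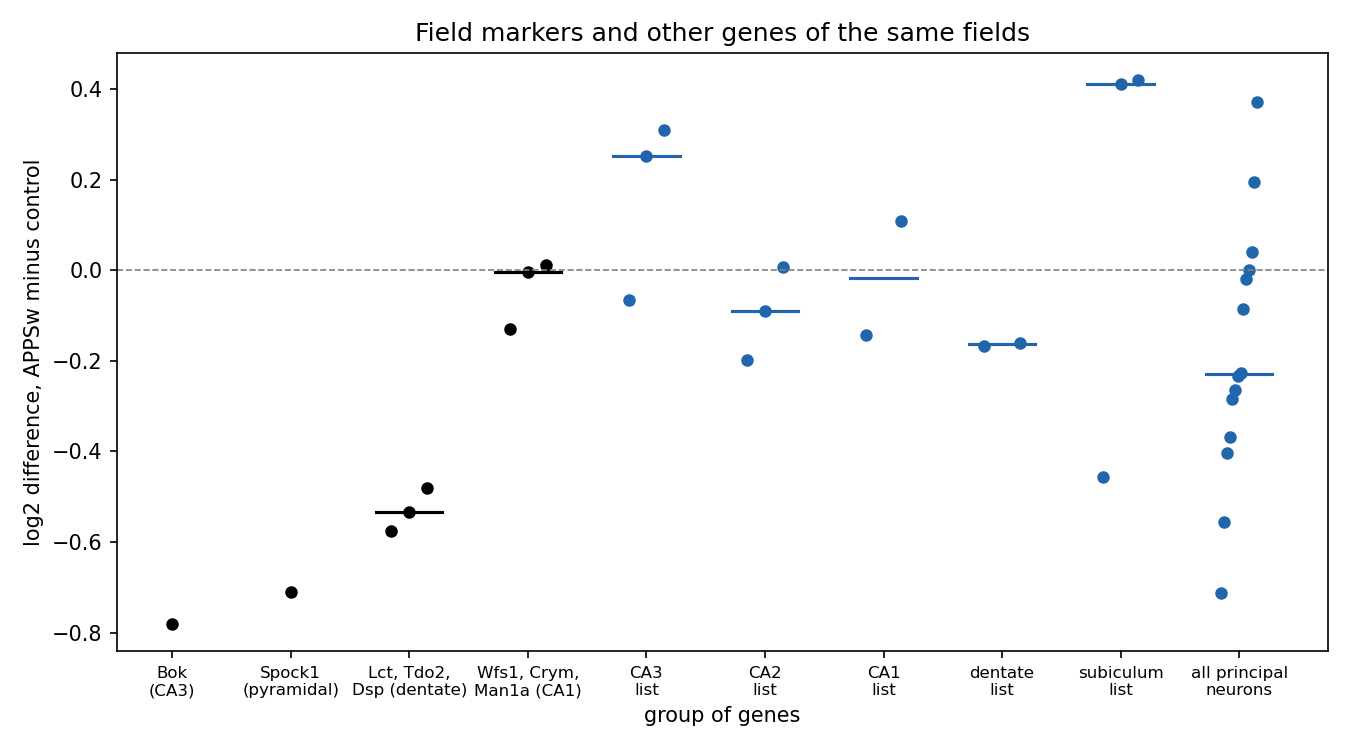
Log2 difference, APPSw minus control, of each kept gene, with black points for the field markers described above and blue points for the other genes listed for a field. Bars are medians of groups with more than 1 gene. Bok lies at -0.78 and the CA3 list has a median of 0.25, which is -0.046 without APPSw 2, and Lct, Tdo2 and Dsp lie between -0.58 and -0.48 while the 2 other dentate genes lie at -0.16 and -0.17.

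Markers of other cells and regions differed between the arrays as well. The summed signal of 5 kept choroid plexus markers was 101294 in APPSw 1 and 8339 in APPSw 2, against 14470 and 6124 in controls. Ttr alone gave 83384 and 3236 of these sums in APPSw mice, against 8908 and 1896 in controls. That of 8 markers of meninges and fibroblasts was 68613 and 37463 in APPSw mice, against 29019 and 33127 in controls, with 8 of 8 above 0. Oligodendrocyte markers were below 0 for 8 of 8, with sums of 99631 and 80533 in APPSw mice, against 100964 and 108564 in controls. Neocortex markers summed to 18058 and 19251 in APPSw mice, against 14597 and 14220 in controls, with 4 of 5 above 0. Fezf2 alone gave 7471 and 7451 of these sums in APPSw mice, against 4410 and 3797 in controls. The groups overlapped for each other kept gene of that list. Of all kept probe sets, 47.3% lay below 0. No marker list had a signal at 0 on any array.

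Without APPSw 1, the array with the high choroid plexus markers, the log2 difference was -0.73 for Bok, -0.78 for Spock1, -0.62 for Lct and -0.75 for Tdo2. With it the differences were -0.78 for Bok, -0.71 for Spock1, -0.53 for Lct and -0.58 for Tdo2. Both APPSw arrays lay below both controls for these genes, so leaving out APPSw 1 could not turn a sign. In APPSw 2 the median of the choroid plexus markers lay 0.19 above the control mean in log2, while their summed signal was 0.81 of it. The part of the choroid plexus, neocortex, meningeal and oligodendrocyte differences in the field marker values was not tested.

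**Figure D5:**
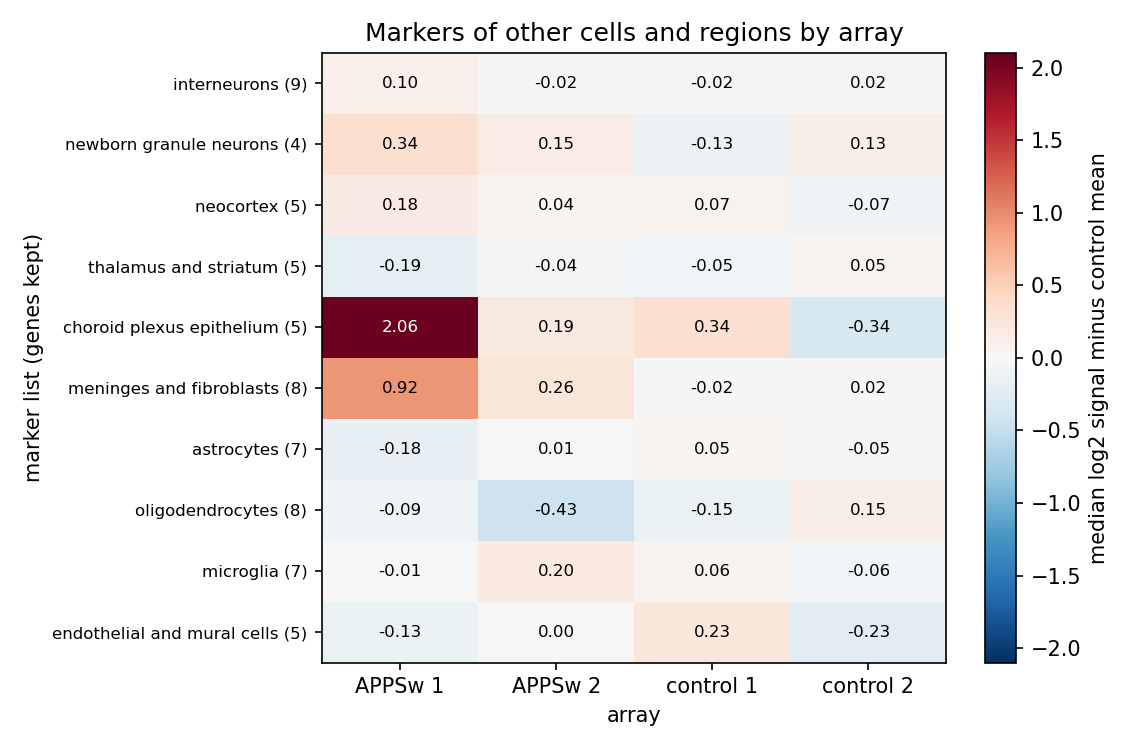
Median log2 signal of markers of other cells and regions on each array, minus the mean of the 2 controls, with the number of kept genes in brackets. Choroid plexus markers reach 2.06 in APPSw 1 and 0.19 in APPSw 2, and oligodendrocyte markers are lowest in APPSw 2 at -0.43.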

How the data were processed

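The files held linear signal intensities, which the authors computed per array by MAS 5.0 with a scaling target of 2500, per the labels. Background settings, detection calls and the scanner were not used here. The table held 12488 probe sets on 4 arrays, and 66 manufacturer's controls were left out. Names came from the platform annotation, which gives 1 symbol to 10833 probe sets, several to 396 and none to 1193. A probe set with several symbols named no gene.

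Differences in log2 signal, APPSw minus control, were fitted in R 4.3.3 by limma 3.58.1 (lmFit, then eBayes), two-sided. P-values were adjusted by Benjamini-Hochberg over the 7453 probe sets whose mean log2 signal reached the 40th percentile, a geometric mean of 565. The fit had 2 residual and 3.70 prior degrees of freedom. Values of probe sets under the filter came from a fit without it. With 2 arrays a group, the smallest two-sided p of an exact permutation test is 0.333. On simulated data for this comparison (7453 probe sets, 200 of them changed, 20 runs), the fit recovered 85.75% of 4-fold and 10.05% of 2-fold changes, with 5.05 false calls per run.

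The field markers, the lists and the alternatives were chosen with earlier results of these data known. The text names every probe set of the field markers and the 3 brightest kept genes of each other field list. Alternatives tried were a filter at the 60th percentile or none, quantile normalization, a pseudocount or a floor of 250, a prior variance with an intensity trend, the replicate number as a block, the mean over a gene's probe sets, and leaving out each array. Promoter sequences are RefSeq's (GRCm38.p6). Figures were drawn with matplotlib 3.10.9.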

Additional observations from a re-analysis of the deposited data

How the results depend on the processing

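The number of probe sets called stayed at 0 in each direction, over the array and among the field markers, under all 11 alternatives tried by limma. Bok, Spock1, Lct, Dsp and Tdo2 by their kept probe sets kept a negative difference in every alternative that gave one. Tdo2 has no value under the 60th percentile filter, which leaves it out. The filters, the trend and the block cannot change such a difference, and the floor of 250 lies under all of these signals. Where both APPSw arrays lie below both controls, leaving out an array cannot turn the sign. The kept sign is therefore not further evidence of a direction. The median over the 8 kept markers was -0.51, and ranged from -0.67 to -0.30 with an array left out, and that of the 3 dentate markers from -0.77 to -0.29. The median of the CA1 markers ranged from -0.18 to 0.045, the low end without control 1. Signs turned with an array left out for Wfs1 (-0.18 to 0.18, and 0.0085 after quantile normalization), Crym (-0.20 to 0.23), Man1a (-0.38 to 0.12) and the dim Dsp probe set (-2.38 to 0.97), and the cause was not tested. The labels do not say that equal numbers mark shared litters or batches, and deviations of same-numbered arrays correlated at -0.02 over the kept probe sets. With the replicate block 0 probe sets were called. The block cannot change a difference in this balanced design, so those of Bok and Spock1 stayed at -0.78 and -0.71.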

Other observations

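Within the list of genes shared by all principal neurons, the individual values ran from -0.71 to 0.37. Rasgrf1, a calcium-responsive exchange factor for Ras, had signals of 10405 and 9830 in APPSw mice, against 15022 and 14710 in controls, a log2 difference of -0.56 (SE 0.17, limma adjusted p = 0.599), and is named after its value was seen. Replicates of Rasgrf1 lay close together in both groups, and the groups did not overlap. Gria1, an AMPA receptor subunit also named after its values were seen, had opposite signs by its 2 kept probe sets, 0.37 (SE 0.21) and -0.67 (SE 0.24), each without overlap of the groups. Neurod2 and Neurod6, transcription factors of excitatory neurons named in the same way, had differences of -0.40 (SE 0.23) and -0.26 (SE 0.19), with both APPSw arrays below both controls, while Neurod1 of the same family had -0.08 (SE 0.20) with overlapping groups. Markers of newborn granule neurons had a median difference of 0.22 over 4 kept genes, with 4 above 0, as were 3927 of all 7453 kept probe sets. Sox11 differed by 1.20 (SE 0.22) and Dcx by 0.31 (SE 0.19), without overlap. Both APPSw arrays lay above both controls for 22.2% of all kept probe sets. Sox4 at 0.12 (SE 0.19) and Tubb3 at 0.09 (SE 0.19) had overlapping groups. Another kept probe set of Sox4 gave -0.07 (SE 0.19). Probe sets of this list under the filter had both signs.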
